A study of Arabidopsis thaliana with 6 samples.

Results

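The SAUR61 to SAUR68 genes form a tandem group on chromosome 1 of Arabidopsis thaliana, and SAUR75, a close relative on chromosome 5, was described with them. These 9 of the 33617 genes in the deposited table were chosen by locus identifier. The rule used 1 measured value, the number of fragments (sequenced read pairs assigned to a gene) summed over all 6 libraries, and a member with under 60 fragments counted as unmeasured. By that rule 3 members were measured and 6 were not.

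SAUR genes (small auxin up RNA) encode short proteins, and many of their transcripts accumulate within minutes of auxin treatment. In the accepted scheme, several SAUR proteins bind and inhibit phosphatases of the PP2C.D group, which otherwise dephosphorylate the plasma membrane proton pumps (the AHA proteins). The pumps then stay active, the cell wall is acidified and the cell expands. The genes described here belong to the subfamily named after SAUR63, which is known in this species for promoting elongation of hypocotyls, petals and stamen filaments.

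The study set the mutant cog1-2D against the Col-0 wild type (wt), with 3 libraries each. The cog1-2D mutant is 1 activation-tagging line, in which an inserted enhancer raises expression of COG1, a gene for a Dof transcription factor with a role in light signalling. All libraries came from whole, untreated seedlings aged 7 days, kept under long days at 23 °C on MS medium, so cell types were mixed. In such bulk RNA, a change in the number of cells that use a gene and a change in RNA per cell cannot be told apart. The labels do not say that libraries of a genotype came from separate cultures, so p-values measure the spread between these samples, which may be technical.

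Libraries held 10575945 to 11202122 fragments. The table held almost nothing for minus-strand genes. The 13666 minus-strand coding genes had a median of 1 fragment over 6 libraries, and 1.16% of them reached 60. The 13777 plus-strand coding genes had a median of 985, and 72% reached 60. In wt replicate 1 the minus-strand share of fragments was 0.0301%, against 0.139 to 0.154% in cog1-2D and 0.168 and 0.169% in the other wt libraries. That library also had the fewest genes above 0, 13123 against 15366 to 16433 in the others. COG1 itself (AT1G29160) lies on the minus strand and had 0, 3 and 3 fragments in cog1-2D and 0 in each wt library, so it could not serve as a check of the labels. Of the 3 leaf markers examined, CAB1, a light-harvesting protein gene, averaged 24900 ± 570 CPM (fragments corrected for library size) in cog1-2D and 23390 ± 2830 in wt (SD, n = 3 each). The other leaf markers, RBCS1A and RBCS3B, are genes of the thinly counted minus strand and gave no check. The same holds for the flower gene AP3 and the pollen gene VGD1, both at 0. The flower gene AG, on the plus strand, had 11 fragments in cog1-2D and 9 in wt. All 5 root markers were called between the genotypes, TIP4;1 as higher in cog1-2D and HKT1, PIN2, PRP3 and SCR as lower. The summed level of these 5 was 172.3 to 182.3 CPM in cog1-2D and 192.8 to 226.7 CPM in wt, and the part of root tissue in the results below was not tested. The seed storage gene CRU3 stood out in 1 library, with 369 fragments in cog1-2D replicate 2 and 10 or fewer in each of the others.

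Strand separated the measured from the unmeasured members. In the TAIR10.1 annotation of RefSeq the tandem group spans chr1:10301377-10323239, or 21.86 kb. SAUR61, SAUR62, SAUR63, SAUR64 and SAUR65 come first and lie on the minus strand. After a gap of 11.49 kb, SAUR68, SAUR66 and SAUR67 follow in that order on the plus strand. COG1 lies 116.9 kb away on the side of SAUR61. SAUR75 is also a minus-strand gene. The 3 measured members were thus the 3 plus-strand members, and the 6 unmeasured ones were the 6 minus-strand members.

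The unmeasured members gave no comparison between genotypes. SAUR61 and SAUR75 had 0 fragments in all 6 libraries, which for a group of 3 libraries allows a level of up to 0.0929 CPM in cog1-2D and 0.0919 CPM in wt (3 fragments over the group, counting error only). SAUR62 had 1 fragment, in cog1-2D replicate 0. SAUR63, the gene after which the subfamily is named, had 0 fragments in cog1-2D and 1, 0 and 1 in wt. SAUR64 had 1, 0 and 2 fragments in cog1-2D and 1, 0 and 1 in wt, and its total of 5 was the closest below the limit of 60. The zeros of wt replicate 1 in these members come from the library with the lowest minus-strand share. SAUR65 had 2 fragments, both in cog1-2D replicate 1. With minus-strand genes missing as a class, these values say nothing of whether seedlings use these genes. The closest total above the limit was the 174 fragments of SAUR68.

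**Figure D1:**
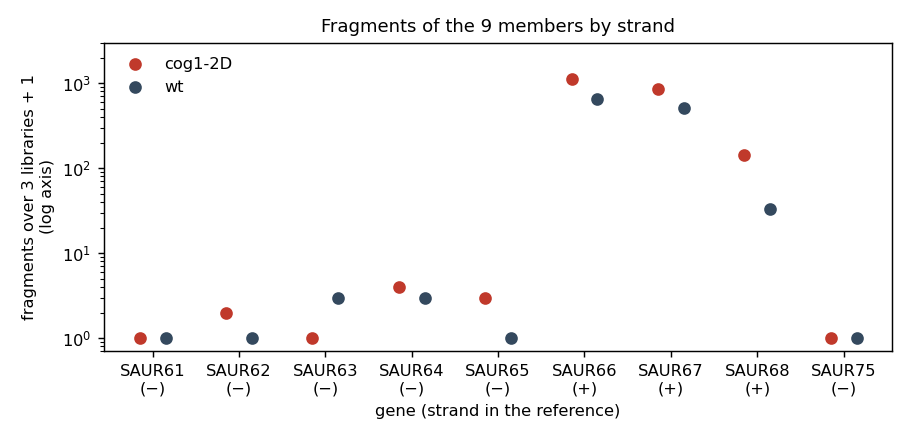
Fragments summed over the 3 libraries of each genotype, plus 1, on a log axis, for the 9 members with their reference strand under the name. SAUR66, SAUR67 and SAUR68 on the plus strand held 142 to 1128 fragments in cog1-2D and 32 to 656 in wt, while no minus-strand member had more than 5 over all libraries.

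The names of the plus-strand members differ between sources. AT1G29500 is SAUR66. AT1G29490 is called SAUR68 here, as in the authors' deposited table. RefSeq gives the symbol SAUR68 to AT1G29510 but notes that this gene should be SAUR67, the name used here.

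The members resemble each other in sequence to unlike degrees, which bears on how fragments could be assigned. Over the bases that aligned without a gap, their coding sequences were 81.7 to 97.7% identical in pairs. SAUR62 and SAUR75 were the closest at 97.7%, with SAUR63 and SAUR67 next at 92.0%. Among the measured members, SAUR66 and SAUR67 were 86.0% identical, SAUR67 and SAUR68 85.2%, and SAUR66 and SAUR68 83.4%. The first 105 coding bases of the measured members and of SAUR63 (SAUR67 from its coding base 4, since it has 1 codon more at the start) show the extent of this. Capitals mark bases that differ from SAUR67 at the same position, and all are given 5′ to 3′ from RefSeq TAIR10.1.
SAUR67, chr1:10322686-10322790, plus strand: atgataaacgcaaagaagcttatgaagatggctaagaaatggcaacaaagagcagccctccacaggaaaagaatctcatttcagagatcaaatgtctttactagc
SAUR63, chr1:10304892-10304996, minus strand: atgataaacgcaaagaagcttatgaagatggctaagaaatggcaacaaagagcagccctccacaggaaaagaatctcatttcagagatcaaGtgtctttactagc
SAUR66, chr1:10321290-10321394, plus strand: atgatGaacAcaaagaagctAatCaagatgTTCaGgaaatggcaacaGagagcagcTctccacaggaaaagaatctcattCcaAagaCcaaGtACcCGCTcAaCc
SAUR68, chr1:10319835-10319939, plus strand: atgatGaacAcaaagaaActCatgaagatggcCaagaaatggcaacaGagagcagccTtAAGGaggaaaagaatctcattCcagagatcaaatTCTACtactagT

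SAUR63 differed from SAUR67 at 1 of these bases, SAUR68 at 18 and SAUR66 at 22. Of the 743 stretches of 75 bases in the SAUR67 transcript, 120 (16.2%) occurred without a mismatch in another member, and SAUR63 had the same number. SAUR66 and SAUR68 had no such stretch. The level of SAUR67 is therefore uncertain to the extent that fragments of SAUR63 could have been counted with it. SAUR66 and SAUR68 shared a run of 53 bases, and 4 stretches of 50 bases in each occurred without a mismatch in another member. Read length and alignment with mismatches were not considered, so whether fragments were exchanged between SAUR66 and SAUR68 was not tested.

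All 3 measured members were higher in cog1-2D than in wt, and in each of them every cog1-2D library stood above every wt library. SAUR68 was 4.48-fold higher, SAUR66 1.75-fold and SAUR67 1.69-fold. Of the 10347 genes tested, 16.3% were called higher in cog1-2D and 20.0% lower, and in 24.3% all cog1-2D libraries lay above all wt libraries and in 25.5% below them. SAUR68 reached 60 fragments through its cog1-2D libraries, since its wt libraries held 32 in all. The count of 3 of 3, and the rank of its change among tested genes, are therefore given as a description. SAUR66 and SAUR67 passed that limit in each genotype alone. Without wt replicate 1, the log2 fold changes were 2.50 for SAUR68, 0.91 for SAUR66 and 0.83 for SAUR67, against 2.16, 0.80 and 0.76 with all libraries.

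SAUR68 (AT1G29490, chr1:10319732-10320402, plus strand, 1 exon in the reference) had the lowest level of the measured members. It held 44, 46 and 52 fragments in cog1-2D and 10, 15 and 7 in wt. Per transcript length, its deposited FPKM (fragments scaled by transcript length and library size) was 8.71, 9.32 and 10.05 in cog1-2D and 1.81, 3.01 and 1.38 in wt. The lowest cog1-2D library lay well above the highest wt library, and the cog1-2D libraries were close to each other. Mean FPKM was 9.36 ± 0.67 in cog1-2D and 2.07 ± 0.84 in wt (SD, n = 3 each). The log2 fold change was 2.16 ± 0.27 (SE), with an adjusted p of 0.000322 by edgeR's quasi-likelihood test, and 0.889% of tested genes had a larger one. This was 1 of the 2.80% of tested genes called higher by 2-fold or more.

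SAUR66 (AT1G29500, chr1:10321011-10321978, plus strand, 1 exon) carried the most fragments of the group. It held 420, 404 and 304 fragments in cog1-2D and 218, 243 and 195 in wt. Its FPKM was 50.7, 49.8 and 35.7 in cog1-2D and 24.1, 29.8 and 23.5 in wt. Replicate 2 was the lowest library of cog1-2D and replicate 1 the highest of wt, so the gap between the groups was 35.7 against 29.8. Mean FPKM was 45.4 ± 8.4 in cog1-2D and 25.8 ± 3.5 in wt (SD, n = 3 each). The log2 fold change was 0.80 ± 0.15 (SE), with an edgeR adjusted p of 0.00274.

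SAUR67 (AT1G29510, chr1:10322423-10323239, plus strand, 1 exon) followed SAUR66 closely in level. It held 286, 316 and 258 fragments in cog1-2D and 179, 182 and 155 in wt. Its FPKM was 43.1, 48.6 and 37.8 in cog1-2D and 24.7, 27.8 and 23.3 in wt. As for SAUR66, replicate 2 was the lowest cog1-2D library and replicate 1 the highest wt library, and the groups did not overlap. Mean FPKM was 43.2 ± 5.4 in cog1-2D and 25.3 ± 2.3 in wt (SD, n = 3 each). The log2 fold change was 0.76 ± 0.11 (SE), with an edgeR adjusted p of 0.000861.

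**Figure D2:**
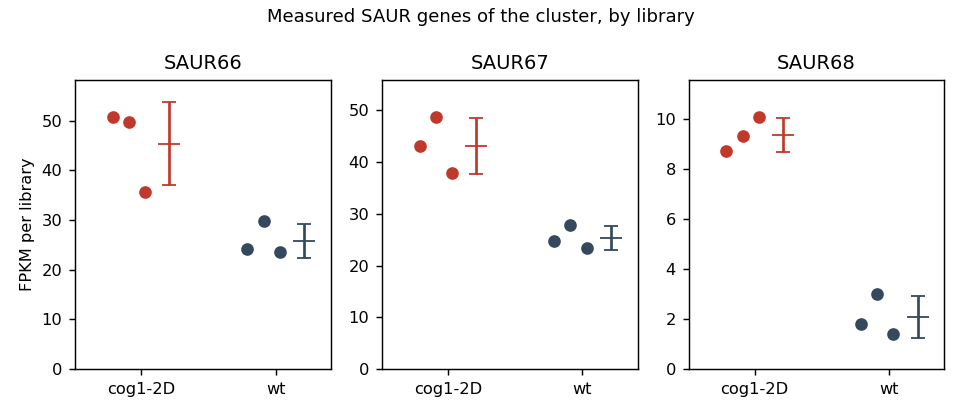
FPKM of SAUR66, SAUR67 and SAUR68 in each library (points), with the mean and SD of each genotype beside them (bars); the 3 panels have their own linear axes from 0. Every cog1-2D point lies above every wt point, and the distance relative to the wt level is widest for SAUR68, at 9.36 against 2.07 mean FPKM.

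The authors' deposited table, made with Cuffdiff, gives log2 fold changes of 2.18 for SAUR68, 0.82 for SAUR66 and 0.77 for SAUR67, each with a q-value of 0.000349. SAUR68 is the 1 member on their sheet of genes higher by 2-fold or more.

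The order of levels per length was SAUR66 and SAUR67 side by side and SAUR68 far below. The FPKM of SAUR66 divided by that of SAUR67 was 1.18, 1.02 and 0.943 in cog1-2D and 0.977, 1.07 and 1.01 in wt. These ratios lay on either side of 1 in each genotype, so the pair had no fixed order. The FPKM of SAUR68 divided by that of SAUR66 was 0.172, 0.187 and 0.282 in cog1-2D and 0.0752, 0.101 and 0.0587 in wt. Against the 9926 plus-strand coding genes with 60 fragments or more, whose median FPKM was 21.6 in cog1-2D and 22.1 in wt, SAUR66 exceeded 71.4% in cog1-2D and 55.3% in wt. SAUR67 exceeded 70.0% in cog1-2D and 54.7% in wt. SAUR68 exceeded 29.0% in cog1-2D and 6.91% in wt, and so stayed in the lower part of the range in each genotype.

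Summed over the measured members, the level was 70.2, 73.1 and 55.5 CPM in cog1-2D and 35.4, 41.8 and 33.6 CPM in wt. This sum does not depend on how fragments were split among these members, but it would include any fragments of SAUR63 counted with SAUR67. The sum averaged 66.3 ± 9.4 CPM in cog1-2D and 36.9 ± 4.3 CPM in wt (SD, n = 3 each), a ratio of 1.80. SAUR66 made up 52.8 ± 3.2% of these fragments in cog1-2D and 54.5 ± 0.8% in wt, and SAUR67 40.5 ± 2.1% in cog1-2D and 42.9 ± 1.4% in wt. SAUR68 made up 5.87, 6.0 and 8.47% in cog1-2D and 2.46, 3.41 and 1.96% in wt. Its share was higher in every cog1-2D library than in any wt library, but the difference between the members' fold changes was not tested.

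The promoters, taken as the 250 bases before each annotated start in RefSeq TAIR10.1, are shown because the measured members moved the same way. They were searched on both strands for TGTCTC, an auxin response element, for CACGTG, the G-box bound by bHLH factors such as the PIF proteins, and for AAAG, the core sequence bound by Dof proteins, the family of COG1. Matches of different motifs were allowed to share end bases. Capitals mark TGTCTC on the strand shown.
SAUR68, chr1:10319482-10319731: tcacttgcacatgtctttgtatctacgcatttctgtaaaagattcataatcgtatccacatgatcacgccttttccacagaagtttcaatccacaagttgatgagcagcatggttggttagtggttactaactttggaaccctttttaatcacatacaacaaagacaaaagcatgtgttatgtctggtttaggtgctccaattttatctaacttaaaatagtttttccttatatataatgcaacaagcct
SAUR66, chr1:10320761-10321010: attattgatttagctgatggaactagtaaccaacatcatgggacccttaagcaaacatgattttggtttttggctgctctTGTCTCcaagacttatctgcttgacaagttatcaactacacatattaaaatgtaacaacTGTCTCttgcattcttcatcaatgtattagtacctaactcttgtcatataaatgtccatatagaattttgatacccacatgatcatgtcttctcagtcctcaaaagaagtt
SAUR67, chr1:10322173-10322422: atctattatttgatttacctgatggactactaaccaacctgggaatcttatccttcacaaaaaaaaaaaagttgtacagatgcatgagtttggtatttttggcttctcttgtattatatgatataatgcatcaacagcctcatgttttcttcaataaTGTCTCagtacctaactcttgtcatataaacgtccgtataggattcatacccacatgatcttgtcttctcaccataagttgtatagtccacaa

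TGTCTC occurred 2 times before SAUR66, at 170 and 111 bases from the start, and 1 time before SAUR67, at 93 bases. It did not occur in this window before SAUR68, the member with the largest fold change. The windows do not cover matching stretches of these genes, because the annotated starts lie at unlike distances from the coding sequences. SAUR68 starts at 10319732 and its coding sequence at 10319835, against 10321011 and 10321290 for SAUR66. Whether the counts of TGTCTC and AAAG differ for that reason was not tested. Of 27443 promoters of the same length, 10.9% held TGTCTC. The G-box CACGTG was in none of the 9 member promoters and in 6.49% of all promoters. AAAG was found 7 times before SAUR68 and 1 time each before SAUR66 and SAUR67. It is so short that 98% of all promoters held it, with a median of 4 copies. SAUR66 and SAUR67 share the run agtacctaactcttgtcatataaa, 83 and 87 bases before their starts. It was also present before SAUR63, and these were the 3 of 27443 promoters that held it. A match is a description of the letters and shows neither a bound site nor a cause.

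The genes around the group were examined next, because COG1, the gene activated in the mutant, lies on the same arm. Between COG1 and the SAUR genes, 35 annotated genes are in the deposited counts, of which 13 were tested, all on the plus strand. None of these 13 was called higher and 2 were called lower by edgeR, with a median log2 fold change of -0.05. Over the same distance beyond the group, 13 of 34 such genes were tested, 2 were called higher and 3 lower, with a median of 0.04. The rates over all tested genes were 16.3% higher and 20.0% lower.

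Within the group, 1 other gene passed the filter. AT1G29465, an uncharacterised gene between SAUR65 and SAUR68 that overlaps 5 small nucleolar RNA genes, had 182, 204 and 167 fragments in cog1-2D and 115, 125 and 128 in wt. Its libraries did not overlap between the genotypes, and its log2 fold change was 0.61 ± 0.13 (SE; edgeR adjusted p = 0.00514). The 5 small nucleolar RNA genes lie on its own strand, so its count is uncertain. In the deposited counts these small genes held 0 or 1 fragment each over all libraries. The closest tested neighbours on either side did not move with the SAUR genes. AT1G29418, an uncharacterised gene 0.075 kb outside the group on the COG1 side, had 87, 72 and 89 fragments in cog1-2D and 782, 651 and 563 in wt. That is a log2 fold change of -2.98 ± 0.12 (SE; edgeR adjusted p = 2.47e-07), in a gene that shares its strand and position with 3 small nucleolar RNA genes, so the count is uncertain. Each of those 3 genes held 0 fragments in the deposited counts. On the other side, AT1G29520, for a membrane protein of the AWPM-19 type 0.397 kb past SAUR67, averaged 22.1 ± 1.4 CPM in cog1-2D and 24.2 ± 1.5 CPM in wt (SD, n = 3 each). Its libraries overlapped between the genotypes and it was not called (edgeR adjusted p = 0.26).

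Beyond the group, AT1G29560, for a zinc finger protein, held 238, 255 and 230 fragments in cog1-2D and 115, 112 and 116 in wt, with a log2 fold change of 1.10 ± 0.10 (SE; edgeR adjusted p = 3.51e-05). A gene with the same annotated product, AT1G29600, was nearly missing from the mutant, with 0, 2 and 1 fragments in cog1-2D and 137, 128 and 121 in wt. The wt level over the cog1-2D level was 127, with an exact binomial 95% interval of 43.1 to 618 that covers counting error alone. Without cog1-2D replicate 1, which held 2 of its 3 fragments, that ratio was 257 (45.8 to 10170). Near it lies eIF4E3, for a cap-binding translation initiation factor, with 9, 9 and 12 fragments in cog1-2D and 45, 63 and 48 in wt. Its log2 fold change was -2.35 ± 0.27 (SE; edgeR adjusted p = 0.000156). The rises and falls thus stood side by side on this stretch of the chromosome. Smaller changes were called for AT1G29670, a GDSL lipase gene, at 0.35 (edgeR adjusted p = 0.0101), and for AT1G29310, a SecY translocon gene, at -0.20 (edgeR adjusted p = 0.0124). Without cog1-2D replicate 1 neither of this last pair passed, with adjusted p-values of 0.0504 for AT1G29670 and 0.0616 for AT1G29310, and AT1G29310 was not called by DESeq2 either (adjusted p = 0.0614). AT1G29600 and AT1G29310 have no entry among the genes the authors deposited as changed, while AT1G29560, eIF4E3 and AT1G29670 do.

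**Figure D3:**
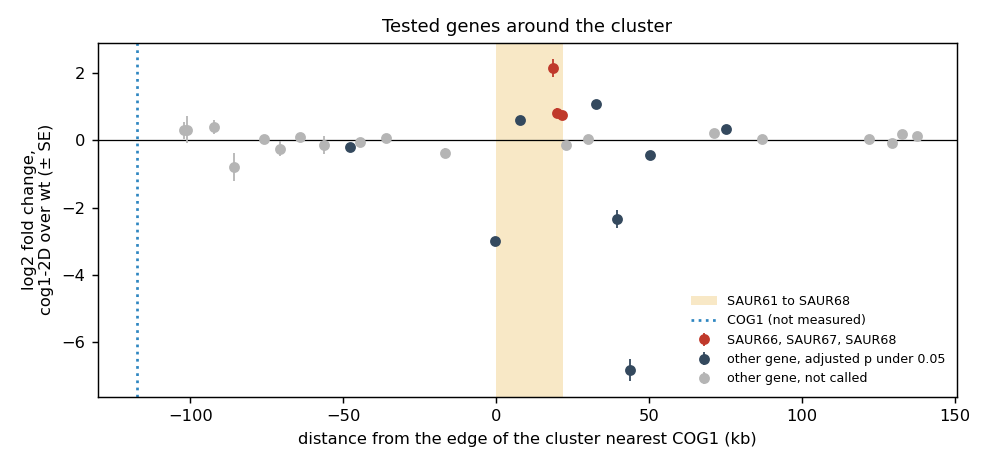
Log2 fold change (cog1-2D over wt, bars are SE) of the tested genes around the group against distance from its COG1-side edge in kb, with the position of COG1 dotted and the span of SAUR61 to SAUR68 shaded. SAUR66, SAUR67 and SAUR68 sit at 0.76 to 2.16, while the 13 tested genes between COG1 and the group have a median of -0.05 and genes at -2.98 and -6.82 lie at and beyond its edges, the last a fitted value for AT1G29600 that rests on 3 cog1-2D fragments.

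Other SAUR genes were also higher in cog1-2D. The deposited counts hold 70 annotated SAUR genes outside the group, 40 of them on the plus strand, and 33 passed the filter. Of these 33, 15 were called higher, 1 lower and 17 were not called, where 16.3% of all 10347 tested genes were called higher and 20.0% lower. The median log2 fold change was 0.38, against 0.003 over all tested genes. Their summed level was 483.2 to 546.2 CPM in cog1-2D and 335.7 to 352.8 CPM in wt. The list includes AT5G01830, which carries the symbol SAUR21 in RefSeq but encodes an ARM repeat protein and was not called.

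The 6 called SAUR genes outside the group with the largest changes lay between SAUR68 and SAUR66 in size. SAUR23, of a SAUR clade known for promoting cell expansion, averaged 8.24 ± 1.81 CPM in cog1-2D and 2.37 ± 0.60 CPM in wt, a log2 fold change of 1.80 ± 0.24 (edgeR adjusted p = 0.000396). SAUR24, of the same clade, averaged 18.7 ± 3.8 CPM in cog1-2D and 7.77 ± 2.06 CPM in wt, a change of 1.25 ± 0.20. SAUR27 changed by 1.67, SAUR13 by 1.65, SAUR1 by 1.64 and SAUR3 by 1.60 on the log2 scale. SAUR68, at 2.16, had the largest fitted change of the 36 SAUR genes tested, with an SE that overlapped that of SAUR23. With 32 wt fragments in all, it was measured through its cog1-2D libraries, so this rank is a description. Without wt replicate 2 the order turned, with SAUR23 at 2.01 and SAUR68 at 1.945. SAUR66 and SAUR67 lay below all 6. SAUR36 was the 1 gene of the family called lower, at 11.2 ± 1.1 CPM in cog1-2D and 13.9 ± 0.4 CPM in wt (log2 fold change -0.31 ± 0.11, edgeR adjusted p = 0.0471). It was named after its value was seen, because it was alone, and it lost its call in 9 of 16 alternatives, with adjusted p from 0.0308 to 0.205 over all 16.

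**Figure D4:**
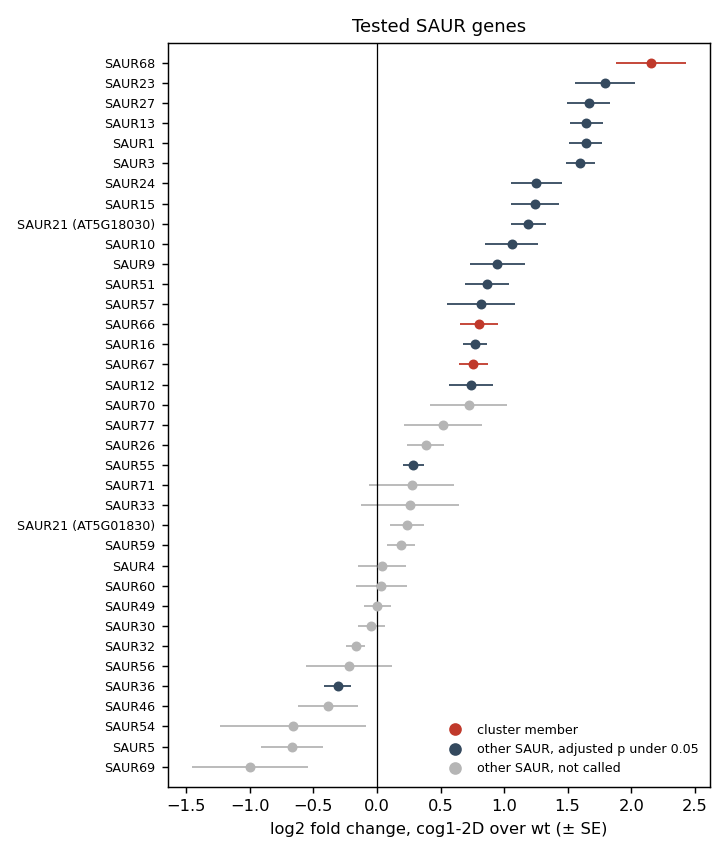
Log2 fold change (cog1-2D over wt, bars are SE) of the 36 SAUR genes that passed the filter, largest at the top, with the members, other called genes and genes not called in different colours. SAUR68 is at the top with 2.16, SAUR66 and SAUR67 at 0.80 and 0.76 stand in the upper part, and SAUR36 at -0.31 is the called gene below 0.

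For the phosphatases and pumps on which SAUR proteins act, and for the auxin and growth genes after them, the counts stand beside 16.3% higher, 20.0% lower and 36.3% called in either direction over all tested genes. Of 9 PP2C.D genes 4 were tested, 1 was called higher, 1 lower and 2 not, with a median log2 fold change of 0.11. PP2C.D1, for a phosphatase that limits cell expansion in the apical hook, averaged 196 ± 35 CPM in cog1-2D and 79.0 ± 12.9 CPM in wt (SD, n = 3 each), a change of 1.31 ± 0.15 (edgeR adjusted p = 0.000145). PP2C.D8, another of these phosphatases, averaged 50.9 ± 2.3 CPM in cog1-2D and 62.5 ± 3.3 CPM in wt, a change of -0.30 ± 0.07 (edgeR adjusted p = 0.00678). Of 11 AHA proton pump genes 8 were tested, with 2 called higher, none lower and a median of 0.10. AHA8 changed by 0.46 (edgeR adjusted p = 0.0032) and AHA11 by 0.31 (edgeR adjusted p = 0.00303). The tested pumps included 1 minus-strand gene, AHA2, a main pump of growing seedlings. It had 16, 19 and 14 fragments in cog1-2D and 21, 2 and 25 in wt. The 2 came from wt replicate 1, the library with the lowest minus-strand share. AHA2 was not called (log2 fold change 0.06 ± 0.57, SE; edgeR adjusted p = 0.951), and as a thinly counted minus-strand gene it gave no usable comparison.

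The upstream genes of the auxin and growth pathways were few, since many lie on the minus strand. Of 11 auxin receptors and activating ARF factors 3 were tested, none was called higher and 1 lower, with a median log2 fold change of 0.11. The lower one was ARF5, an auxin-dependent activator of transcription, at 59.9 ± 7.6 CPM in cog1-2D and 78.5 ± 9.9 CPM in wt (change -0.39 ± 0.11, edgeR adjusted p = 0.0252), which lost its call in 4 of the fits that left out 1 library, with adjusted p up to 0.0767. Of 9 growth regulators 6 were tested, 3 were called higher and 1 lower, with a median of 0.21, against 16.3% higher and 20.0% lower over all tested genes. PRE1, for a small helix-loop-helix protein that promotes elongation, averaged 15.3 ± 2.7 CPM in cog1-2D and 7.53 ± 2.21 CPM in wt, a change of 1.03 ± 0.21 (edgeR adjusted p = 0.00457). IBH1, for a helix-loop-helix protein that restrains elongation, averaged 12.5 ± 1.0 CPM in cog1-2D and 21.8 ± 0.8 CPM in wt, a change of -0.80 ± 0.09 (edgeR adjusted p = 0.000177). PIF3, for a phytochrome-interacting factor, changed by 0.40 (edgeR adjusted p = 0.0055). BES1, for a brassinosteroid-responsive factor, changed by 0.25 (edgeR adjusted p = 0.0107, and 0.0526 without cog1-2D replicate 1).

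Across the 6 libraries, the genes whose pattern was most like SAUR66 (Pearson r of log2 CPM, as a description over libraries that fall into 2 genotypes) were led by BT3, for a BTB and TAZ domain protein, with r = 0.997. BT3 averaged 11.5 ± 2.0 CPM in cog1-2D and 7.14 ± 0.70 CPM in wt. CYP705A6, for a cytochrome P450, followed with r = 0.997, then GTE8, for a bromodomain protein, with r = 0.994, NPR3, for a salicylic acid receptor, with r = 0.993, and AT5G06270 with r = 0.993. Their log2 fold changes ran from 0.11 for GTE8, which was not called, to 0.74 for CYP705A6, since r does not depend on the size of a change. SAUR67 ranked 43 by this measure with r = 0.976 and SAUR68 ranked 570 with r = 0.906. Of 10346 genes, 625 (6.04%) had r of 0.9 or more.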

How the data were processed

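Messenger RNA of 3 cog1-2D and 3 wt seedling samples was sequenced after a TruSeq Stranded mRNA preparation, per the labels' protocols. The submitters' processing notes name Trimmomatic 0.36, HISAT2 2.1.0, Cufflinks 2.2.1, Cuffdiff and the build TAIR10; the strand setting is not given in the sources used here. The deposited expected counts are unscaled fragments per gene and library, per the file headers. The deposited FPKM values were used as given, and the transcript lengths and library sizes behind them were not checked. The authors' log2 fold changes and q-values (adjusted p-values) come from their deposited workbook. Of the expected counts, 98.1% were whole within 1e-06, including all of those of the 9 members. Of 33617 genes, 32225 matched a RefSeq TAIR10.1 locus tag, and coordinates and sequences are from that assembly, because the files hold no coordinates to compare builds with.

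Counts were rounded and tested with edgeR 4.0.16 in R 4.3.3 (filterByExpr, TMM, quasi-likelihood F-test with genotype as the only term, Benjamini-Hochberg adjustment over all 10347 tested genes, threshold 0.05). The SE of a log2 fold change is its size over the square root of F. CPM used TMM library sizes, and log2 CPM for the likeness measure a prior count of 2. Library totals were 10575945 to 11202122 fragments. Intervals and floors cover counting error only. The edgeR step was tested on simulated data. The members and gene lists were chosen with earlier results of these data known, and no test was made over a list. Named were the 9 members, any tested gene between them, the nearest tested gene on each side, up to 6 called neighbours by smallest p, up to 6 called SAUR genes and 4 called genes per other list by largest change, COG1, and the 5 genes most like SAUR66. SAUR36, AHA2, AT5G01830 and the tissue markers were named outside this rule. Alternatives were RLE and upper-quartile scaling, DESeq2 1.42.0, no filter, a mean of 50 fragments or more, plus-strand genes alone, limma 3.58.1 on log2(FPKM + 1) and log2(FPKM + 0.1) over genes whose mean FPKM was at least 0.5, robust dispersions, a replicate block and each library left out.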

Additional observations from a re-analysis of the deposited data

How the results depend on the processing

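The 3 measured members stayed higher in cog1-2D and past the threshold in every alternative that gave them a value. The log2 fold change of SAUR68 ran from 1.79 to 2.50 (adjusted p up to 0.00276), that of SAUR66 from 0.72 to 0.95 (adjusted p up to 0.0152) and that of SAUR67 from 0.67 to 0.85 (adjusted p up to 0.00432). SAUR68 had no value under the filter at a mean of 50 fragments, so 2 members were called there. Over all genes, 1129 to 1896 were called higher and 1554 to 2303 lower across these settings. The labels do not say whether the replicate numbers pair the libraries. Deviations of same-numbered libraries from their genotype means correlated at -0.01, -0.02 and 0.11, and those of other pairs at -0.20 to 0.16. With 3 libraries per genotype these values cannot settle whether libraries were paired. With the replicate block, SAUR68 changed by 2.16, SAUR66 by 0.80 and SAUR67 by 0.76, and 1863 genes were called higher and 2230 lower. The SE with the block was 0.301 for SAUR68, 0.097 for SAUR66 and 0.077 for SAUR67, against 0.274, 0.147 and 0.113 without it. Among the other named genes, CYP705A6 lost its call in 10 of 15 alternatives and, of 16 each, SAUR36 in 9, AT5G06270 in 5, ARF5 in 4, AT1G29310 in 2 (DESeq2 and without cog1-2D replicate 1) and AT1G29670 and BES1 in 1 (without cog1-2D replicate 1); the cause was not tested. The alternatives for SAUR36, and the rank of SAUR68 in each setting, were added after seeing the data; SAUR68 ranked first among tested SAUR genes in all settings that gave it a value except without wt replicate 2. Depth limits SAUR68 most, with 32 wt fragments in all, and SAUR67 shares 16.2% of its 75-base stretches with another member.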
